A study of Rattus norvegicus with 9 samples.

Results

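The nuclear-encoded subunits of oxidative phosphorylation were taken from a table of gene expression in rat kidney. They were the rows whose symbol starts with Nduf, Uqcr, Cox4 to Cox8 or Atp5, or is one of Sdha, Sdhb, Sdhc and Sdhd. The rule, which uses names and no measured value, found 92 of 11235 rows of the authors' table of FPKM (fragment counts scaled to transcript length and to library size), under 90 distinct symbols. By complex, 7 rows were core and 34 accessory subunits of complex I, 7 were assembly factors of complex I, 4 belonged to complex II, 7 to complex III and 12 to complex IV. ATP synthase gave 5 rows of its F1 head, 15 of its FO membrane part and stalk, and 1 for its inhibitor. Of the 92 rows, 12 are named or typed as pseudogenes or copies, or share a symbol with another row, and reads of such genes can be split between near-identical sequences. Every row of the table reaches 1 FPKM in 8 or 9 of the 9 libraries. A listed subunit gene without a row under its symbol (Cox7a1, Cox8a, Uqcr11 and Ndufa7 among them) was not analysed here. Why it has no row was not tested.

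The respiratory chain passes electrons from NADH and succinate through complexes I to IV to oxygen and pumps protons across the inner mitochondrial membrane. ATP synthase lets the protons flow back and makes ATP, and its inhibitor protein Atp5if1 slows the enzyme when it would run in reverse and consume ATP. Most subunits are encoded in the nucleus and the rest in mitochondrial DNA, and the kidney tubule depends on this pathway for the ATP that drives salt reabsorption.

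RNA came from kidneys of wild-type Sprague-Dawley rats, given as 6 to 8 weeks old, in 3 groups of 3 poly(A) libraries: sham operation, renal ischaemia-reperfusion (I/R, with 45 min of ischaemia) and I/R with rapamycin, an inhibitor of the kinase mTOR. The labels differ on the rest. The series design speaks of male rats, a clamp on the left renal artery and 1 mg/kg/day of rapamycin into the peritoneum. The sample protocols speak of both sexes, oral dosing from the day before surgery, 1 or 2 mg/kg/day, 3 or 7 days of reperfusion and 6 groups, and no sample label says which of these it had. Sample labels name kidney as the tissue and renal tubular cells as the cell type. All 12 proximal tubule markers of a list of such genes were in the table, and so were the 5 podocyte and 6 endothelial markers. The libraries thus held RNA of other kidney cells besides tubular ones. Which part of the kidney was taken was not tested. Replicates are numbered but not stated to be separate animals, and the p-values therefore cover the spread among the libraries at hand, which may be technical.

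Libraries held 44582251 to 60538627 counted reads. On the first principal component, which took 26.2% of the variance over all tested genes, sham 3 and I/R 1 stood together at one end and the first and second rapamycin libraries at the other. Libraries of a group differed by far more than sampling noise (chi-square per degree of freedom 34.2 to 137), so each was counted once. The summed level of 3 erythrocyte genes in CPM (read counts scaled to library size) was 245 to 2552 in sham, 1242 to 3332 in I/R and 84.8 to 524 CPM with rapamycin. For 8 immediate early and stress genes it was 571 to 3433, 354 to 1663 and 310 to 390 CPM. The 12 proximal tubule genes summed to 17378 to 21442, 19124 to 23652 and 16286 to 19203 CPM. The 5 podocyte genes summed to 686 to 702 CPM in sham, apart from 452 to 636 CPM after I/R alone and 423 to 593 CPM with rapamycin. The part of any of these in the results below was not tested.

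Most subunit genes were among the abundant transcripts of the table. Their median level over the 9 libraries was 84.7 FPKM against 8.42 FPKM for all rows, and 37 of 92 were at 100 FPKM or more. In the 500 most abundant rows, which are 4.45% of the table, stood 39 members (42.4%). The assembly factors of complex I were all at low levels, with means from 2.68 FPKM for Ndufaf7, a methyltransferase, to 15.4 FPKM for Ndufaf3.

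Within each complex the means spanned wide ranges on the FPKM scale. FPKM divides by transcript length, and the lengths implied by counts and FPKM ran from 179 to 8159 bases, so ranks can differ in CPM. Atp5f1b, the catalytic beta subunit of F1, had the highest level of all members at 1270 FPKM. Atp5f1c, the gamma subunit that turns inside the head, was the lowest of F1 at 57.3 FPKM, with an implied length of 8159 bases. In CPM the lowest of F1 was Atp5f1e (implied length 179 bases), at 44.6 to 86.1 CPM against 366 to 534 CPM for Atp5f1c. The core of complex I ran from Ndufv2, an iron-sulfur subunit, at 184 FPKM to Ndufs7, which carries an iron-sulfur cluster near the quinone site, at 14.7 FPKM. Its accessory subunits ran from Ndufb8 at 173 FPKM down to the pseudogene row Ndufs5-ps1 at 1.6 FPKM. The 4 complex II genes were the closest together of the complexes with several genes: the membrane anchor Sdhc was at 250 FPKM and the iron-sulfur subunit Sdhb at 118 FPKM. Complex III ran from Uqcrfs1, the Rieske iron-sulfur protein, and Uqcrq, both at 225 FPKM, to Uqcrb at 45.2 FPKM. In complex IV, Cox6c had 431 FPKM and Ndufa4l2, a relative of the subunit Ndufa4 that is known to be induced by hypoxia, had 3.21 FPKM. In FO and the stalk, Atp5mf had 286 FPKM and the lower of the 2 rows named Atp5mc1 had 1.5 FPKM.

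Among genes for alternative forms of a subunit, the FPKM levels were far apart in some sets. Ndufa4 was at 105 FPKM against the 3.21 FPKM of Ndufa4l2. Cox7a2 was at 275 FPKM and Cox7a2l, whose product helps to join complexes III and IV into supercomplexes, at 71.6 FPKM. The genes for subunit c, the proton-carrying ring of FO, encode the same mature protein: Atp5mc2 was at 251, Atp5mc3 at 214 and the higher Atp5mc1 row at 109 FPKM. Cox4i1 was at 174 and Cox6a1 at 317 FPKM, and their alternative forms Cox4i2 and Cox6a2 were not analysed here.

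**Figure D1:**
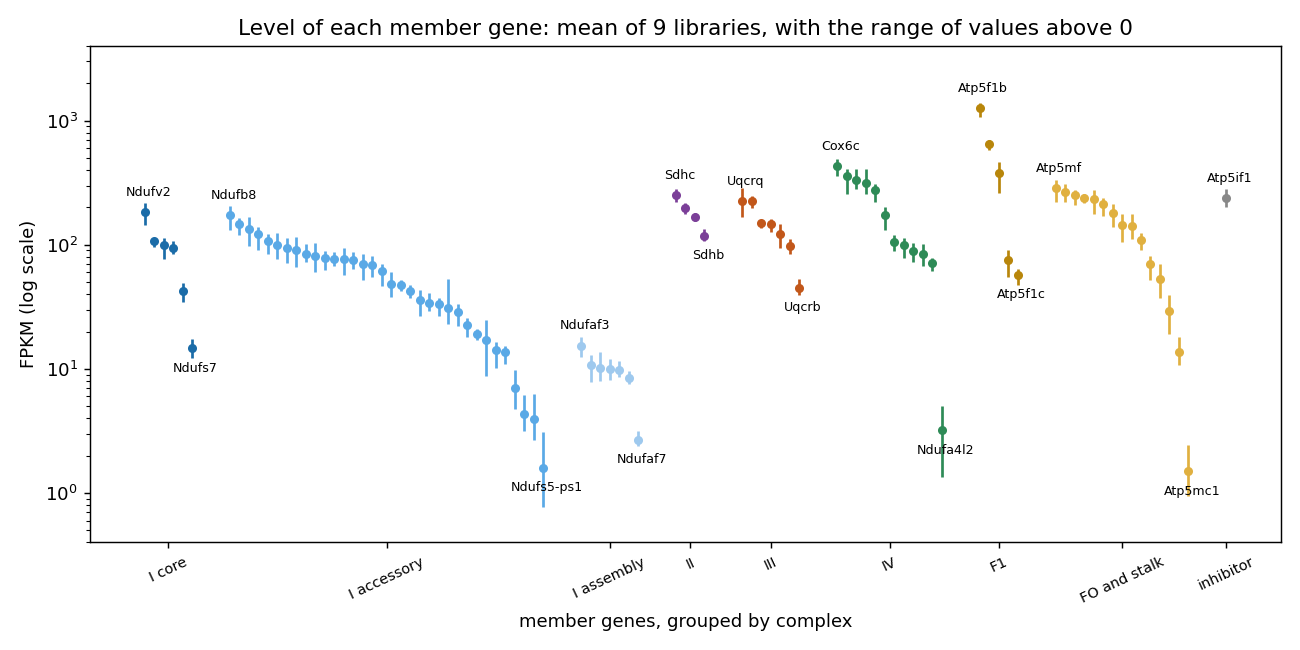
Mean level of the members over 9 libraries (points, FPKM on a log axis), grouped by complex, with the range of values above 0 as bars; the highest and lowest member of each group are named, and 1 complex I member is not drawn in the plots. Atp5f1b leads at 1270 FPKM, and assembly factors of complex I lie at 15.4 FPKM and below.

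Promoters of 4 members are shown because they stand for the kinds of start region found in the set: with the binding letters of NRF1 and of ETS factors, with NRF1 letters alone, with ETS letters alone and with neither. NRF1 and the ETS factor GABP are known activators of nuclear genes for the respiratory chain. Each sequence is 300 bases, from 250 before to 50 after the transcription start, on the gene's strand, from RefSeq (GRCr8), and capitals mark the NRF1 core (GCGCA, 1 base of any kind, GCGC) or the ETS core (CCGGAAG) on either strand. Atp5me is at chr14:1464610-1464909 on the plus strand, Sdha at chr1:30764303-30764602 on the plus strand, Uqcrh at chr5:134790833-134791132 on the minus strand and Ndufa4l2 at chr7:65241919-65242218 on the plus strand.
Atp5me: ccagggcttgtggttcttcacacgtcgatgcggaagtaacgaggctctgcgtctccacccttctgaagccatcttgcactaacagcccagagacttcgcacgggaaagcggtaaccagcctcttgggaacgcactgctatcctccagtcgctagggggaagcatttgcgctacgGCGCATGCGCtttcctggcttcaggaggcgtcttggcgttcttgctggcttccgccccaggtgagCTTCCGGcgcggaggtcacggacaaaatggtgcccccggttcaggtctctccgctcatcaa
Sdha: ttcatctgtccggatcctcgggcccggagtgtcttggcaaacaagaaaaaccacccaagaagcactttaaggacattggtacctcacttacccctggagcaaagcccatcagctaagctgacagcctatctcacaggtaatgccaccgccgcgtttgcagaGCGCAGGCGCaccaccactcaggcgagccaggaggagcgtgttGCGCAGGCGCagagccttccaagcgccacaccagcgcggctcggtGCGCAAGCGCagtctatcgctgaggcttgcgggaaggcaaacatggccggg
Uqcrh: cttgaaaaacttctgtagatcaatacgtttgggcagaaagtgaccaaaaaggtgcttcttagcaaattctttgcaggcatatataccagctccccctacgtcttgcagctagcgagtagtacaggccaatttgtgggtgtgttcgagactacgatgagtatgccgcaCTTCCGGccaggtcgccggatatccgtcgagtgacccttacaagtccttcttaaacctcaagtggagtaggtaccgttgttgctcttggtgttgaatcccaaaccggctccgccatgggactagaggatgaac
Ndufa4l2: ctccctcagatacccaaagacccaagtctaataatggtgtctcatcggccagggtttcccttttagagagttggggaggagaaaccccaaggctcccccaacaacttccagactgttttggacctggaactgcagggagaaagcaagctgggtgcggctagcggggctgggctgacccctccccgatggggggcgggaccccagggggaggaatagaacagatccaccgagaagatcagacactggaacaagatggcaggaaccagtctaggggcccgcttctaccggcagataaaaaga
The searched letters for the 2 factors do not overlap in these promoters. In Atp5me, for subunit e of FO, the NRF1 letters begin 76 bases and the ETS letters 11 bases before the start. Sdha, for the flavoprotein of complex II, holds the NRF1 letters 3 times, from 89, 46 and 1 bases before the start. Uqcrh, for the hinge protein of complex III, holds the ETS letters 83 bases before it, and Ndufa4l2 holds neither.

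A promoter was matched for 75 member rows, with 74 distinct sequences. The NRF1 core was in 16 of 74 (21.6%) against 10.5% of 8106 promoters of genes in the table. The ETS core was in 21 of 74 (28.4%) against 19.3%, and TATAAA in 5 of 74 (6.76%) against 6.54%. By complex, the NRF1 letters were in 7 of 26 accessory genes of complex I and 4 of 10 genes of FO and stalk, but in 0 of 10 of complex IV and 0 of 6 of the complex I core. The ETS letters were in 3 of 6 genes of complex III, 2 of 4 of complex II and 3 of 10 of complex IV. They were also in 4 of 10 genes of FO and stalk and 1 of 5 of F1. In complex I they were in 5 of 26 accessory genes, 2 of 6 core genes and 1 of 6 assembly factors. A match describes the letters in this window and does not show binding.

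Comparing I/R with sham asks what injury changed in this set. Most members were fitted lower after I/R, but the differences were small and no member passed the test. The median log2 fold change of the 92 members was -0.12 against 0.00 for all 17335 genes tested, and 75 of 92 were below 0. The 17 above 0 compare with 50.7% of all genes tested and 47.7% of the FPKM table. edgeR's quasi-likelihood test called 0 members at an adjusted p under 0.05, against a background of 0.0577% of genes tested and 0.089% of the FPKM table. At an unadjusted p under 0.05 stood 2 members fitted higher (4.83% of genes tested and 4.99% of the table) and 1 fitted lower (4.59% and 5.64%). DESeq2 called 1, Ndufa4l2, against a background of 1.32%. The groups did not overlap for 3 members on the higher side (7.43% of genes tested and 7.32% of the table) and 2 on the lower (7.19% and 8.27%). In bulk RNA, fewer cells of a type and less RNA per cell cannot be told apart.

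The set's lower median depended on single libraries. I/R 1 had the lowest CPM of the 9 libraries in 76 of 92 members (82.6%), against 16.1% of all tested genes. The median deviation of the members from their own mean over libraries, in log2 CPM, was -0.15, 0.19 and -0.10 in sham 1 to 3 and -0.37, 0.08 and -0.09 in I/R 1 to 3. I/R 1 was thus below all sham libraries, while I/R 2 and I/R 3 lay inside the sham range. Without I/R 1 the median was 0.00, with 47 of 92 above 0, and without sham 2, the highest sham library, it was -0.01. Leaving out I/R 2 instead moved it to -0.23, and the members fitted lower at an unadjusted p under 0.05 from 1 to 14 (15.2%, against 4.23% of genes tested in that fit). That count was 5 without sham 1 or sham 3 (5.43%, near the 5.04% and 4.79% of genes tested in those fits). It was 0 without sham 2 or I/R 3 (against 3% and 3.36%).

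**Figure D2:**
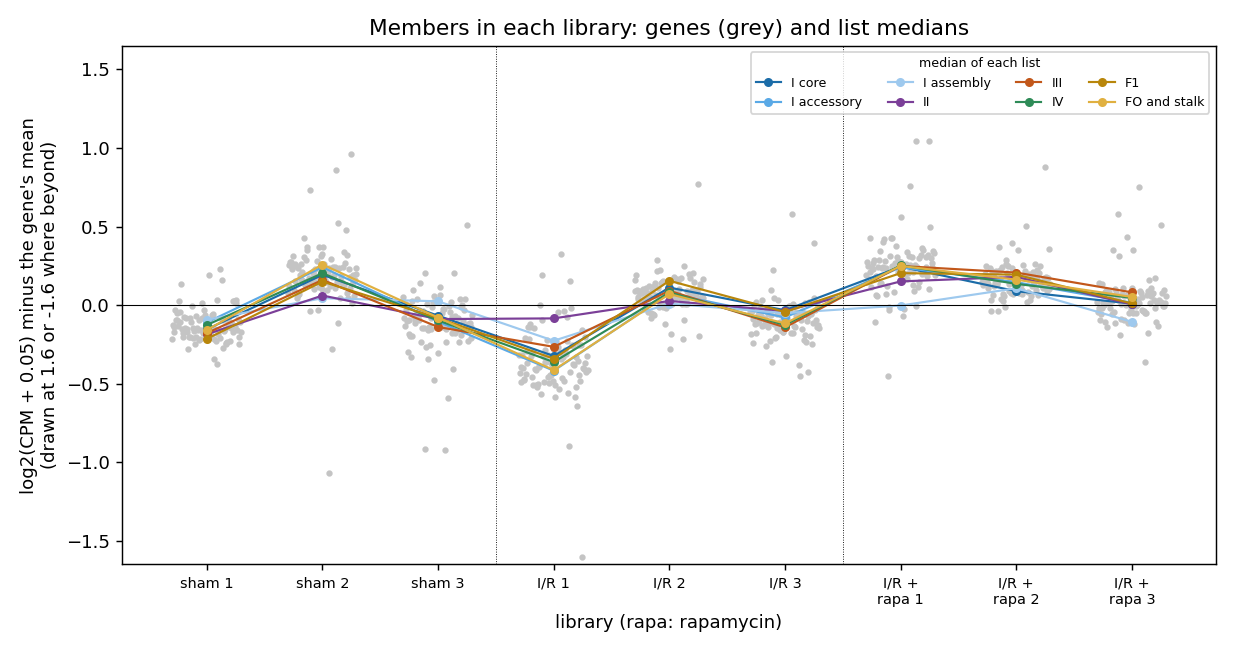
Deviation of each member from its mean over the 9 libraries (grey points, log2 of CPM + 0.05) and the median of each list (coloured lines) in each library; points beyond the axis are drawn at its edge. Members of nearly every list move together: low in I/R 1, high in sham 2 and in the first rapamycin library.

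Ndufa4l2 had the largest difference of the set. Its sham libraries held 2.47, 1.47 and 1.63 CPM and its I/R libraries 3.94, 3.31 and 4.71 CPM. All 3 I/R libraries were above all sham libraries. The log2 fold change was 1.10 (SE 0.26), with an adjusted p of 0.255 by edgeR's quasi-likelihood test and 0.0232 by DESeq2. It was higher in I/R while Ndufa4, its abundant relative, was at 308, 378 and 315 CPM in sham libraries against 260, 330 and 284 CPM after I/R (a difference of -0.19 in log2, SE 0.12, adjusted p = 0.652).

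Complex I core and accessory genes had medians of -0.11 and -0.16, with 6 of 7 and 31 of 34 below 0. In the core, Ndufs7 was at -0.13 (SE 0.13) and Ndufv1, which binds NADH, at -0.11 (SE 0.12). The smallest p-values of the accessory list were those of pseudogene rows: Ndufa3-ps3 was at -0.59 (SE 0.24, adjusted p = 0.499) and Ndufs5-ps2 at -0.46 (SE 0.21, adjusted p = 0.546). The assembly factor Ndufaf6 went the other way. It was at 9.66, 11.2 and 9.53 CPM in sham libraries against 13.1, 14.0 and 13.4 CPM after I/R, with no overlap between the groups (0.42, SE 0.12, adjusted p = 0.311). Ndufaf7 was at -0.24 (SE 0.11, adjusted p = 0.533), its I/R libraries all below sham.

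Complex II had the median nearest 0, at 0.03. The flavoprotein gene Sdha was at 0.03 (SE 0.11), Sdhb at 0.04 (SE 0.11), and the membrane anchors Sdhc and Sdhd at 0.04 (SE 0.10) and -0.01 (SE 0.10). Complex III had a median of -0.05, with Uqcrh at -0.14 (SE 0.12) and the core protein Uqcrc2 at 0.07 (SE 0.10). In complex IV, with a median of -0.12, Cox7a2l was at -0.19 (SE 0.09, adjusted p = 0.568), Cox4i1 at -0.18 (SE 0.15), Cox6a1 at 0.01 (SE 0.15) and Cox7a2 at 0.03 (SE 0.15). None of these passed the test.

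ATP synthase genes had medians of -0.06 in F1 and -0.14 in FO and stalk, where 14 of 15 were below 0. Among F1 genes the smallest p-values were those of the small subunits epsilon, Atp5f1e, at -0.20 (SE 0.20) and delta, Atp5f1d, at -0.14 (SE 0.17). In FO and stalk, Atp5pd, the d subunit of the peripheral stalk, was at -0.27 (SE 0.14) and Atp5me at -0.25 (SE 0.15). The subunit c genes were at -0.08 (SE 0.13) for the higher Atp5mc1 row, -0.14 (SE 0.11) for Atp5mc2 and -0.01 (SE 0.14) for Atp5mc3. The inhibitor Atp5if1 was at -0.26 (SE 0.13), with 126, 155 and 129 CPM in sham libraries against 103, 132 and 109 CPM after I/R, which overlap.

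Comparing I/R with rapamycin to I/R alone asks what the drug changed in injured kidneys. Members of every complex were mostly fitted higher with rapamycin, yet no single member passed the test. The median log2 fold change of the 92 members was 0.26, against 0.01 over all genes tested and 0.03 over the genes of the FPKM table. Of the 92, 87 were above 0, against 50.8% of all genes tested and 54.4% of the table. edgeR called 0 members (0.127% of genes tested and 0.125% of the table), with 19 at an unadjusted p under 0.05 and fitted higher (background 7.11%, and 9.82% of the table) and 1 fitted lower (9.14% and 9.74%). DESeq2 called 2, the pseudogene rows Ndufs5-ps2 and Atp5mpl-ps1, against a background of 5.38%. Groups did not overlap for 19 members on the higher side (20.7%, against 11.8% of all genes and 14.9% of the table) and for 1 on the lower side (12.8% of all genes and 13.1% of the table). The erythrocyte genes given above were also apart between these groups, lower with rapamycin, and their part in these differences was not tested.

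This comparison shares its I/R libraries with the one above, so I/R 1 bears on both. The member medians were 0.24, 0.15 and 0.02 in the rapamycin libraries, against -0.37, 0.08 and -0.09 in I/R. The third rapamycin library thus lay below I/R 2, and the groups overlap. Rapamycin 1 had the highest CPM of the 9 libraries in 47 of 92 members (51.1%, against 15.3% of all genes). Without I/R 1 the median was 0.15, with 83 of 92 above 0 and 5 at an unadjusted p under 0.05 and fitted higher (5.43%, against 5.56% of genes tested and 7.14% of the table in that fit). Without I/R 2 it was 0.38, with 52 such members (56.5%, against 6.66% and 9.53%). That count was 8 without rapamycin 1 or rapamycin 2 (8.7%, against 3.72% and 4.42% of genes tested in those fits). It was 32 without rapamycin 3 (34.8%, against 7.31%) and 30 without sham 2 (32.6%, against 7.34%).

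Complex III and the FO part of ATP synthase had the highest list medians, at 0.35 and 0.31. With the length trend removed these were 0.17 and 0.14, the median of F1 was higher at 0.27, and that of complex II was 0.07. Uqcrb, a small subunit near the quinone site, was at 74.7, 92.7 and 76.7 CPM after I/R alone and 110, 107 and 96.6 CPM with rapamycin. All rapamycin libraries were above all I/R libraries (log2 fold change 0.36, SE 0.12, adjusted p = 0.205 by edgeR's quasi-likelihood test). Uqcrh was at 99.1, 122 and 105 CPM and then 144, 140 and 131 CPM, also with no overlap (0.35, SE 0.12, adjusted p = 0.211). Uqcr10, named after its values were seen, made the third complex III gene whose groups were apart (0.43, SE 0.15, adjusted p = 0.211 by edgeR). That is 3 of 7 genes, against 11.8% of genes tested and 14.9% of the table. The larger Uqcrc1, Uqcrc2 and Uqcrfs1 were at 0.13, 0.06 and 0.17.

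In FO and stalk, 5 of 15 rows had groups apart on the higher side (11.8% of genes tested and 14.9% of the table) and all 15 were above 0. Atp5me was at 24.5, 31.3 and 27.1 CPM in I/R and 38.3, 35.8 and 41.5 CPM with rapamycin. Its lowest rapamycin library was above its highest I/R library (0.48, SE 0.15, adjusted p = 0.177). The row with the smallest p of all members was Atp5mpl-ps1, named as a pseudogene of a small proteolipid subunit, at 20.4, 26.5 and 26.8 CPM in I/R and 37.4, 38 and 38.9 CPM with rapamycin. Again the groups were apart (0.63, SE 0.15, adjusted p = 0.118 by edgeR and 0.00718 by DESeq2). The subunit c genes were at 0.31 (SE 0.13) for the higher Atp5mc1 row, 0.21 (SE 0.11) for Atp5mc2 and 0.20 (SE 0.14) for Atp5mc3. Atp5if1 was at 0.26 (SE 0.13), with 144, 147 and 120 CPM under rapamycin against the I/R values above, and the groups overlap. In F1, with a median of 0.20, Atp5f1e was at 0.41 (SE 0.20) and Atp5f1d at 0.31 (SE 0.17), while the alpha and beta subunits Atp5f1a and Atp5f1b were at 0.07 (SE 0.13) and 0.20 (SE 0.14).

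The accessory genes of complex I had a median of 0.26, with 34 of 34 above 0, and the core genes 0.22. Ndufa6, an accessory subunit of the matrix arm, was at 53.9, 81.9 and 69.7 CPM in I/R and 101, 99.1 and 82.5 CPM with rapamycin. Its groups were apart by a narrow margin, 81.9 against 82.5 CPM (0.46, SE 0.16, adjusted p = 0.205). Ndufs5-ps2 was at 2.52, 3.13 and 3.03 CPM and then 5.64, 4.19 and 4.86 CPM (0.76, SE 0.21, adjusted p = 0.156 by edgeR and 0.0403 by DESeq2). In the core, Ndufs7 was at 0.33 (SE 0.13, adjusted p = 0.264), with overlapping groups, and Ndufs3 at 0.32 (SE 0.15, adjusted p = 0.315), with groups apart.

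Assembly factors of complex I had the lowest list median, 0.06, though not with the length trend removed (0.11). Ndufaf5, which hydroxylates Ndufs7, was at 0.40 (SE 0.15, adjusted p = 0.254). Ndufaf6 was the member fitted lower at an unadjusted p under 0.05: its rapamycin libraries, at 11.2, 11.9 and 10.0 CPM, were all below the I/R values of 13.1 to 14.0 CPM and near those of sham (log2 fold change -0.29, SE 0.12, adjusted p = 0.284).

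Complex II had a median of 0.20, with Sdha below the other members. Sdha was at 704, 776 and 724 CPM in I/R and 715, 769 and 703 CPM with rapamycin (-0.01, SE 0.11), so the groups lay over each other. The anchors Sdhc, at 0.21 (SE 0.10, adjusted p = 0.323 by edgeR), and Sdhd, at 0.21 (SE 0.10, adjusted p = 0.332), had groups apart. They are 2 of 4 genes, against 11.8% of genes tested and 14.9% of the table. Sdhc was at 422, 429 and 384 CPM and then 463, 487 and 477 CPM. Sdhb was at 0.19 (SE 0.11).

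In complex IV, all 12 genes were above 0 and the median was 0.25. Cox7a2l was at 92.1, 109 and 103 CPM in I/R and 124, 124 and 117 CPM with rapamycin (0.26, SE 0.09, adjusted p = 0.227 by edgeR). It was the 1 gene of 12 in this complex with groups apart (8.33%, below the 11.8% of genes tested and 14.9% of the table). Cox6a1 was at 0.36 (SE 0.15, adjusted p = 0.280), Cox4i1 at 0.30 (SE 0.15) and Cox7a2 at 0.17 (SE 0.15). Ndufa4 was at 0.23 (SE 0.12). Ndufa4l2, high in I/R, was at 3.97, 3.75 and 5.32 CPM with rapamycin and so not apart from I/R (0.12, SE 0.26, adjusted p = 0.852).

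**Figure D3:**
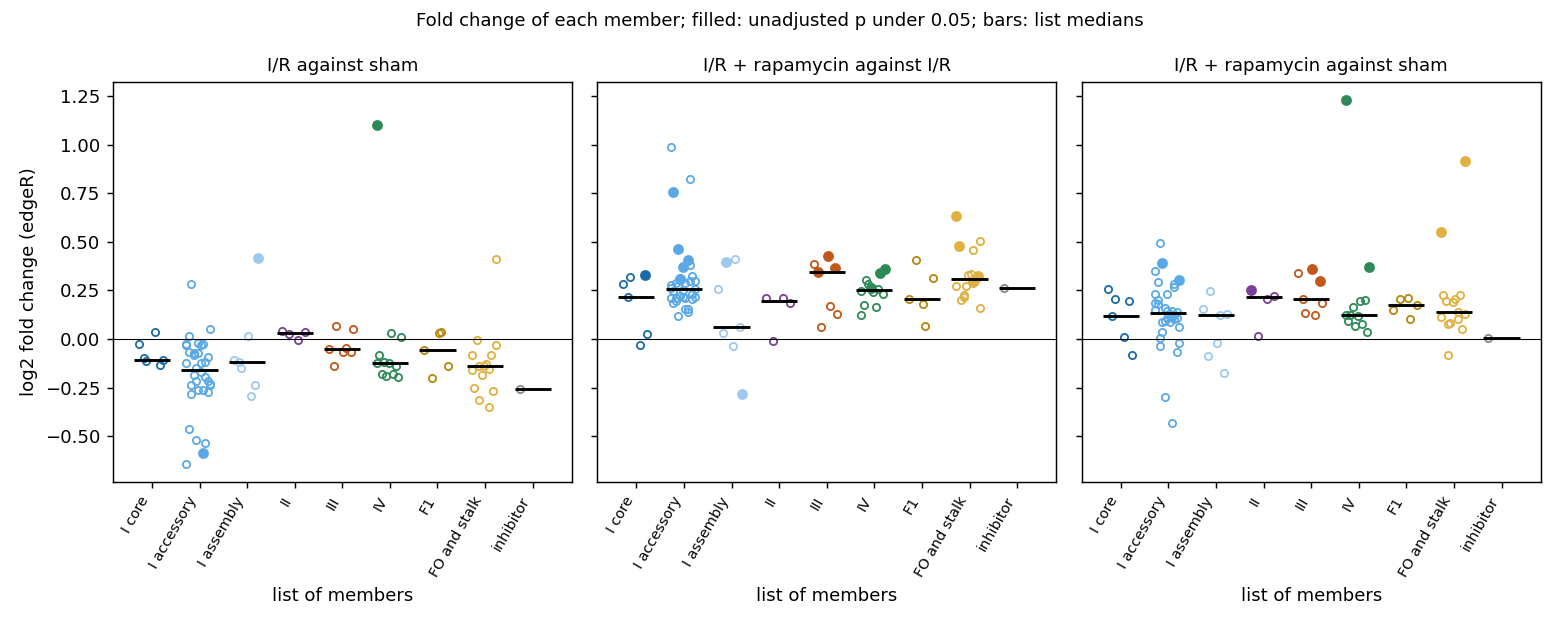
Log2 fold change (edgeR) of each member in the 3 comparisons, by list; filled points have an unadjusted p under 0.05 and bars are list medians. In the middle panel medians run from 0.06 (complex I assembly) to 0.35 (complex III); Ndufa4l2 is the filled complex IV point above 1 in the other panels.

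Transcript length moved with these differences. The length implied by counts and FPKM had a median of 1410 bases over the members and 3203 bases over the table. Implied lengths, such as 8159 bases for Atp5f1c and 3847 bases for Atp5mg, were not checked against transcript sequences. A gene with too long an implied length is set beside the wrong length class. The fit with the length trend removed uses the same implied lengths. Across the other 11140 genes of the table, longer genes had lower log2 fold changes of rapamycin against I/R (Spearman correlation -0.48, and -0.47 across the 92 members). Genes are not independent replicates, and all share the same libraries. Below 1000 bases, 646 other genes had a median of 0.23 and 35 members 0.33. From 1000 to 2000 bases the medians were 0.18 for other genes and 0.24 for 30 members, and from 2000 to 3000 bases 0.09 and 0.21 for 14 members. From 3000 to 5000 bases, where 9 members lie, other genes were at -0.01 and members at 0.21, and over 5000 bases other genes were at -0.14 and 4 members at 0.22. With the length trend removed, the members' median was 0.11 with 80 of 92 above 0. In that fit 9 members were at an unadjusted p under 0.05 and fitted higher (9.78%), near the 7.88% of all genes in it. For I/R against sham, the correlations were 0.30 and 0.40, and the medians of members and other genes were both -0.17 below 1000 bases and both -0.09 from 1000 to 2000 bases. Members were at -0.11 and other genes at -0.04 from 2000 to 3000 bases, at -0.03 and 0.01 from 3000 to 5000 bases, and at -0.05 and 0.06 above that. The members' median with the trend removed was -0.04.

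**Figure D4:**
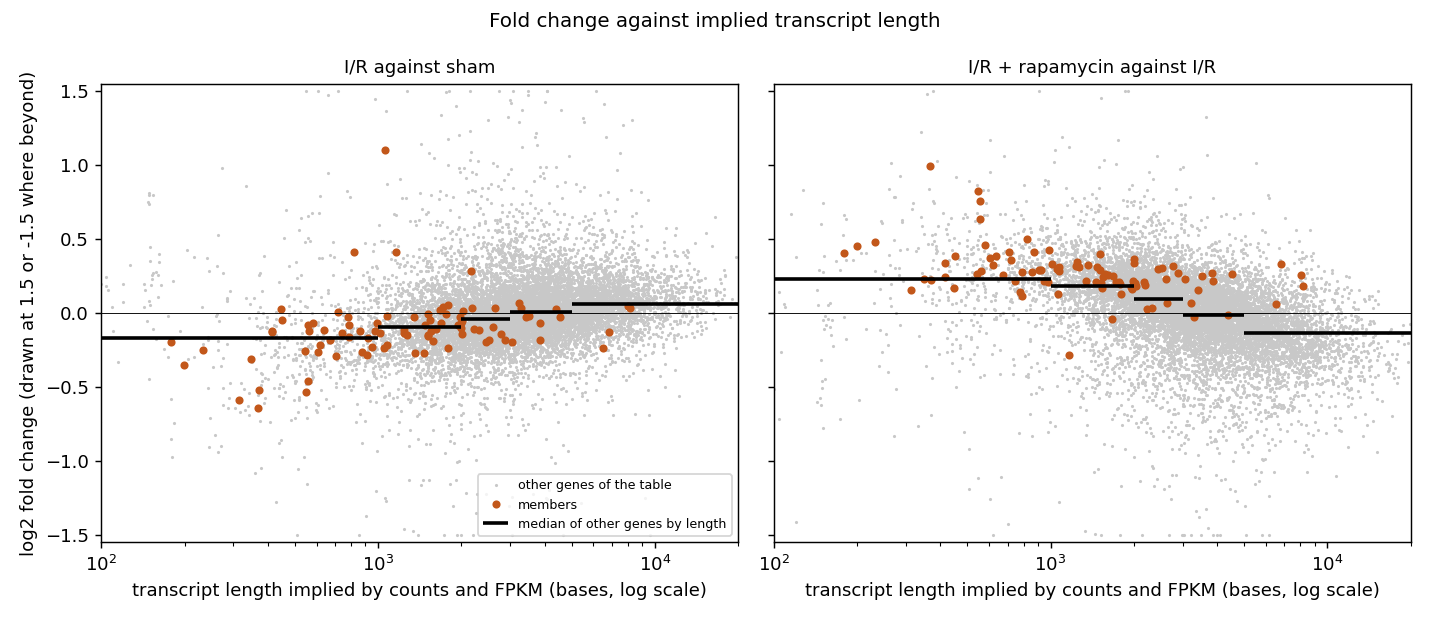
Log2 fold change against implied transcript length (bases, log axis) for other genes of the table (grey), members (orange) and the median of other genes in 5 length classes (black bars), for 2 comparisons. In the right panel most members lie above the bar of their class; values beyond 1.5 are drawn at the edge.

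Comparing I/R with rapamycin to sham asks how far treated kidneys lay from uninjured ones. Most members were fitted slightly higher than in sham, with a median of 0.14 against 0.00 over all genes tested. Of the 92, 81 were above 0, against 50.2% of all genes tested and 51.6% of the table. This comparison shares libraries with both others. edgeR called 0 members (0.156% of genes tested and 0.16% of the table), with 9 at an unadjusted p under 0.05 and fitted higher (6.06% and 7.16%) and 0 fitted lower (7.75% and 7.91%). DESeq2 called 2, Ndufa4l2 and Atp5mpl-ps1, against a background of 3.2%. Groups were apart on the higher side for 6 members (6.52%, against 9.69% of genes tested and 10.3% of the table) and on the lower side for 0 (9.65% and 9.63%). Without sham 2 the median was 0.24, with 27 members at an unadjusted p under 0.05 and fitted higher (29.3%, against 6.25% of genes tested in that fit). Without sham 1 the median was 0.07. The count was 3 (3.26%) without sham 1, sham 3, rapamycin 1 or rapamycin 2, against 5.1%, 5.05%, 3.69% and 3.94% of genes tested. Here too longer genes had lower log2 fold changes (Spearman correlation -0.25 across the other genes of the table, and -0.095 across the members). With the length trend removed the members' median was 0.08, with 73 of 92 above 0. In that fit 8 members were at an unadjusted p under 0.05 and fitted higher (8.7%, near the 7.52% of all genes in it).

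Ndufa4l2 again had the largest difference, with every rapamycin library above every sham library (1.23, SE 0.26, adjusted p = 0.104 by edgeR and 0.00321 by DESeq2). Atp5mpl-ps1 was at 0.55 (SE 0.15, adjusted p = 0.170) and the lower Atp5mc1 row, which is listed inside the other on the opposite strand, at 0.91 (SE 0.31, adjusted p = 0.239). Reads of those 2 rows cannot be told apart without a stated strand setting. The higher Atp5mc1 row was at 0.23 (SE 0.13), Atp5mc2 at 0.08 (SE 0.11) and Atp5mc3 at 0.19 (SE 0.14).

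Complexes II and III had the highest list medians here, both at 0.21. Sdhc was at 381, 441 and 378 CPM in sham, below its 463 to 487 CPM with rapamycin in all libraries (0.25, SE 0.10, adjusted p = 0.304). Sdhd was at 0.21 (SE 0.10), Sdhb at 0.22 (SE 0.11) and Sdha at 0.01 (SE 0.11). Of complex III, Uqcr10 was at 0.36 (SE 0.15, adjusted p = 0.316) and Uqcrb at 0.30 (SE 0.12, adjusted p = 0.324). In complex I, Ndufa6 was at 0.39 (SE 0.16, adjusted p = 0.308), Ndufb9 at 0.30 (SE 0.13, adjusted p = 0.333), the core genes Ndufv2 and Ndufs7 at 0.26 (SE 0.14) and 0.20 (SE 0.13), and the assembly factors Ndufaf5 and Ndufaf7 at 0.25 (SE 0.15) and -0.18 (SE 0.11). In complex IV, Cox6a1 was at 0.37 (SE 0.15, adjusted p = 0.323), Cox4i1 at 0.12 (SE 0.15), Cox7a2 at 0.20 (SE 0.15), Cox7a2l at 0.07 (SE 0.09) and Ndufa4 at 0.04 (SE 0.12). Atp5f1c and Atp5f1b of F1 were at 0.21 (SE 0.14) and 0.15 (SE 0.14), and Atp5if1 was at 0.00 (SE 0.13).

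By the listed spans, 26 members overlap another listed gene, 5 of them on the same strand. Ndufs7 lies whole inside Cirbp, 72.2% of the Atp5f1b span is shared with Baz2a and 39.3% of the Sdhb span with Atp13a2, each on the same strand. The row named Ndufs6, typed as a pseudogene, had 0 reads in I/R 1 and 1.68 to 3.49 CPM in the other 8 libraries, and was named after its values were seen.

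Genes around the chain that the naming rule leaves out were also mostly fitted above 0 for rapamycin against I/R. In this comparison 50.8% of genes tested and 54.4% of the table were above 0, and DESeq2 called 5.38%. Of 19 measured assembly factors and carriers of the chain, all 19 were above 0 (median 0.23), and edgeR called 0 and DESeq2 1. At an unadjusted p under 0.05 and fitted higher stood 7, against 7.11% of genes tested and 9.82% of the table. The median implied length of this list was 1902 bases, and other genes of 1000 to 2000 bases had a median of 0.18. Cycs, for cytochrome c, was at 0.38 (SE 0.12, adjusted p = 0.186) and the assembly factor Dmac2 at 0.31 (SE 0.08, adjusted p = 0.136). Of 19 complex IV assembly genes 16 were above 0 (median 0.14) and DESeq2 called 1, with Cmc2 at 0.46 (SE 0.13, adjusted p = 0.162) and Coa3 at 0.46 (SE 0.15, adjusted p = 0.185). Of 9 further complex I assembly genes 8 were above 0 (median 0.13), with Lyrm2 at 0.31 (SE 0.11) and Tmem126b at 0.25 (SE 0.10). The 13 genes of ubiquinone synthesis had a median of 0.11, with Coq7 at 0.36 (SE 0.15) and Coq9 at 0.19 (SE 0.09), and the 18 genes of the tricarboxylic acid cycle 0.07, with Idh3b at 0.22 (SE 0.09) and Idh3a at 0.18 (SE 0.08). None of these passed the test in edgeR.

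For I/R against sham the medians of these 5 lists lay between -0.09 and 0.03, and edgeR and DESeq2 called 0 of their genes. At an unadjusted p under 0.05 stood 1 chain gene and 1 complex IV assembly gene fitted lower and 1 ubiquinone gene fitted higher. The shares of all genes tested were 4.59% fitted lower and 4.83% fitted higher. The smallest p-values belonged to Bcs1l, a chaperone of complex III, at -0.38 (SE 0.14), Dmac2 at -0.17 (SE 0.08), Cmc2 at -0.43 (SE 0.13, adjusted p = 0.331), Pet100 at -0.22 (SE 0.15), Acad9 at -0.16 (SE 0.09), Timmdc1 at -0.18 (SE 0.11), Coq10a at 0.29 (SE 0.12), Coq10b at 0.70 (SE 0.37), Dlat at 0.17 (SE 0.08) and Ogdh at 0.13 (SE 0.10). For rapamycin against sham the list medians lay between 0.06 and 0.14, again with 0 called by either tool. At most 4 genes a list were at an unadjusted p under 0.05, all fitted higher (against 6.06% of genes tested). Here Cycs was at 0.38 (SE 0.12), Sdhaf3 at 0.45 (SE 0.15), Coa3 at 0.36 (SE 0.15), Coa4 at 0.22 (SE 0.10), Lyrm2 at 0.29 (SE 0.11), Tmem186 at 0.27 (SE 0.13), Coq10a at 0.42 (SE 0.12, adjusted p = 0.181), Coq9 at 0.23 (SE 0.09), Idh3b at 0.25 (SE 0.09) and Suclg1 at 0.17 (SE 0.11).

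The 13 subunits encoded in mitochondrial DNA took 14.5% to 19.7% of all counts, against 1.45% to 1.91% for the 92 nuclear members. Their median was -0.02 for I/R against sham, 0.31 for rapamycin against I/R and 0.23 for rapamycin against sham. Their median implied length was 882 bases, and other genes below 1000 bases had medians of -0.17, 0.23 and 0.07. edgeR called 0 in each, with DESeq2 calling 0, 5 and 3, against 1.32%, 5.38% and 3.2% of all genes. At an unadjusted p under 0.05 stood 0, 6 and 5, all fitted higher, against 4.83%, 7.11% and 6.06% of genes tested. Mt-nd6 was at 0.75 (SE 0.17, adjusted p = 0.122) against I/R and 0.89 (SE 0.17, adjusted p = 0.094) against sham. Mt-nd3 was at 0.58 (SE 0.16) against I/R, and Mt-nd5 at 0.44 (SE 0.14) for rapamycin and 0.16 (SE 0.14) for I/R against sham, where Mt-co3 was at -0.21 (SE 0.12). The libraries were made from poly(A) RNA with no stated strand setting, and the part of either in these levels, Mt-nd6 among them, was not tested.

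Of 16 regulators of mitochondrial biogenesis, edgeR called 1, and DESeq2 called Ppara for I/R against sham, Esrrg, Ppara and Tfb2m for rapamycin against I/R, and Esrrg for rapamycin against sham. Over all genes, in the same order, DESeq2 called 1.32%, 5.38% and 3.2%, and edgeR 0.0577%, 0.127% and 0.156%. Esrrg, the oestrogen-related receptor gamma, a nuclear receptor known to act on genes of the respiratory chain, was at 52.4, 48.0 and 49.0 CPM in sham libraries, 52.6, 46.5 and 53.6 CPM after I/R alone and 28.3, 31.8 and 35.4 CPM with rapamycin. Every rapamycin library was below every other library. Esrrg fell with rapamycin by 0.68 on the log2 scale against I/R (SE 0.10, adjusted p = 0.0408 by edgeR's quasi-likelihood test and 7.54e-06 by DESeq2) and by 0.64 against sham (SE 0.10, adjusted p = 0.0446), and was at 0.03 (SE 0.10) in I/R against sham. Both calls ended with upper-quartile factors (adjusted p = 0.0536 and 0.0552), a fit of the 6 libraries compared (0.0919 and 0.0770), the replicate block (0.116 and 0.118) and limma with pseudocounts of 1 (0.0798 and 0.0875) and 0.1 (0.0804 and 0.0880). The call against sham also ended without I/R 1 and sham 3 together (0.0541). Against I/R the adjusted p was 0.194 without rapamycin 2, 0.184 without rapamycin 1, 0.176 without I/R 3, 0.0918 without I/R 2, 0.0634 without I/R 1, 0.0811 without sham 1 and 0.0583 without sham 2. Against sham it was 0.219 without rapamycin 2, 0.176 without rapamycin 1, 0.149, 0.0955 and 0.0719 without sham 1, 2 and 3, and 0.0699 and 0.0818 without I/R 2 and I/R 3.

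The fatty-acid receptor Ppara was at 16.8, 16.6 and 13.3 CPM in sham libraries, 33.0, 23.3 and 21.5 CPM after I/R alone and 10.6, 16.5 and 13.7 CPM with rapamycin, so that I/R stood above both other groups. It was at 0.74 (SE 0.20, adjusted p = 0.288 by edgeR and 0.0473 by DESeq2) for I/R against sham and -0.93 (SE 0.20, adjusted p = 0.099 by edgeR and 0.00170 by DESeq2) for rapamycin against I/R. Ppargc1a, a coactivator known to drive mitochondrial biogenesis and named after its values were seen, was at 36.2, 27.5 and 40.3 CPM in sham libraries, 36.6, 34.7 and 45.6 CPM after I/R alone and 24.5, 32.2 and 33.3 CPM with rapamycin. Its rapamycin libraries were all below its I/R libraries (-0.38, SE 0.17, adjusted p = 0.302). Nrf1 was at 16.4 to 19.7 CPM and Gabpa at 35.8 to 43.5 CPM over the 9 libraries. Tfb1m was at -0.17 (SE 0.15) for I/R against sham and Tfb2m, a factor for mitochondrial transcription, at 0.25 (SE 0.09, adjusted p = 0.245) for rapamycin against sham and 0.31 (SE 0.09, adjusted p = 0.149 by edgeR and 0.0372 by DESeq2) for rapamycin against I/R. Members with the NRF1 letters in their promoter had a median of 0.24 for rapamycin against I/R (16 rows) and those without 0.26 (59 rows). With and without the ETS letters the medians were 0.30 (21 rows) and 0.25 (54 rows).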

How the data were processed

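Poly(A) RNA of 9 rat kidney libraries was sequenced as paired reads, per the labels' protocols. The authors deposited raw read counts per gene, and FPKM for a filtered set of genes, per the file headers. Rnor_6.0 is the build, and StringTie, HISAT2, DESeq2 and cutadapt the tools, per the submitters' processing notes. How reads were assigned to genes, and whether by strand, is not given in the sources used here. Counts of all genes were fitted over all 9 libraries with edgeR 4.0.16 (R 4.3.3; TMM factors, its default filter with a minimum count of 10, robust quasi-likelihood test), with Benjamini-Hochberg adjustment over the 17335 genes tested and a threshold of 0.05. All 92 members passed the filter on low counts. CPM are scaled by TMM factors. Groups came from the sample labels. DESeq2 1.42.0, limma 3.58.1 on log2(FPKM + 1) and log2(FPKM + 0.1), other factors and filters, a fit of the 6 libraries compared, a replicate block, removal of the length trend and leaving out each library were alternatives. Leaving out 2 libraries together and leaving out the copy rows were added after seeing the data. The edgeR fit was also run on simulated data, with changes larger than the members' median differences. That run does not show whether changes of the members' size would be found. Implied transcript length is the count divided by FPKM and library size.

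The members, lists and tests were chosen with earlier results of these data known. Named in each comparison were the 2 members of each list with the smallest p, all 4 Sdh genes, the alternative forms of subunits, the highest and lowest member of each complex by FPKM, and of other lists the called genes and the 2 with the smallest p. Promoter sequences came from RefSeq (GRCr8); 17 member rows had no match. The values of 1 member are not reported here. No sample column was left unused.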

Additional observations from a re-analysis of the deposited data

How the results depend on the processing

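edgeR and limma called 0 members in each comparison under every alternative except leaving out I/R 1 and sham 3 together, which called 1 for rapamycin against I/R (Atp5mpl-ps1). DESeq2 called 1, 2 and 2 for I/R against sham, rapamycin against I/R and rapamycin against sham. Leaving out each library in turn called 0, and the members' median ran from -0.227 to 0.0036, from 0.154 to 0.377 and from 0.0729 to 0.244. With the replicate block it was -0.12, 0.26 and 0.15, with 0 called. Same-numbered libraries had correlations of -0.213 to 0.136, with 2 of 9 over 0.1, so the numbers were not taken to pair the samples. With 3 libraries a group, the members' median differences of -0.12, 0.26 and 0.14 lie near the spread of the library medians within groups. That spread was 0.18 in log2, as a pooled standard deviation. It does not measure the spread of single genes, which carry their own SE above. The cause of the changes below was not tested.

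Of 946 values under alternatives other than leaving out 1 library, 894 kept their sign and side of the threshold, 11 lost a call (all of them Esrrg with rapamycin), 8 gained one, and 33 changed sign. For I/R against sham, limma with pseudocounts 1 and 0.1 gave 0.0025 and 0.0024 for Atp5mc3 and 0.0197 and 0.0198 for Sdhd. Removing the length trend gave 0.0727 for Atp5mc3, 0.0632 for Sdhd, -0.0052 for Sdha and 0.0055 for the higher Atp5mc1 row. Leaving out I/R 1 and sham 3 gave -0.0173 for Sdhc, 0.0967 for Atp5mc3, 0.0167 for Sdhd and -0.0045 for Esrrg, and upper-quartile factors gave -0.0046 for Cox6a1. For rapamycin against I/R, upper-quartile factors gave 0.0025 for Sdha, and removing the length trend gave 0.0502 for Sdha, -0.0031 for Atp5mc2, -0.0639 for Ndufa4l2 and -0.0448 for Cox7a2. For rapamycin against sham, Atp5if1 was at -0.00036 with DESeq2 factors in edgeR, -0.0010 with DESeq2, -0.00051 with no filter, -0.0408 and -0.0409 with limma, -0.0758 with the length trend removed and -0.0396 without the 2 libraries. There limma gave -0.00489 and -0.00491 for Ndufa4 and -0.0260 and -0.0262 for Sdha, leaving out the 2 libraries -0.0075 and -0.0060, and removing the length trend -0.0012 for Cox7a2l and -0.0038 for Atp5mc2.

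Of 774 values without 1 library, 31 changed sign, in 14 results. For I/R against sham the ranges were -0.291 to 0.0134 for Atp5f1d, -0.188 to 0.0415 for the higher Atp5mc1 row, -0.149 to 0.134 for Atp5mc3, -0.135 to 0.130 for Cox6a1, -0.101 to 0.172 for Cox7a2, -0.0072 to 0.0923 for Esrrg, -0.0381 to 0.112 for Sdha, -0.0219 to 0.110 for Sdhb and -0.0702 to 0.0632 for Sdhd. For rapamycin against I/R they were -0.0466 to 0.261 for Ndufa4l2 and -0.0521 to 0.0295 for Sdha. For rapamycin against sham they were -0.0562 to 0.106 for Atp5if1, -0.0220 to 0.134 for Ndufa4 and -0.0526 to 0.101 for Sdha.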
